A study of Mus musculus with 35 samples.

Results

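The genes described here are the TAM receptor tyrosine kinases *Axl*, *Mertk* and *Tyro3* and their ligands *Gas6* and *Pros1*, 5 of the 53465 genes in the count table. Each of the 5 names had 1 row, and all 35 libraries were used. They were chosen by the measured level of *Axl*, which was lower in the liver libraries labelled Smad4 on than in those labelled Smad4 off on day 7. The values of the 5 genes in that comparison are therefore a description with no test, and tests are given for the other organs and days.

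TAM receptors are cell-surface kinases that recognise phosphatidylserine on dying cells and membranes through the bridging ligands GAS6 and protein S, the product of *Pros1*. AXL binds GAS6, whereas MERTK and TYRO3 bind both ligands. In macrophages these receptors drive the uptake of dying cells and restrain inflammation, and in carcinoma cells AXL is known for its association with mesenchymal-like states, migration and drug resistance.

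The libraries are polyA RNA-seq of mKate2+ tumor cells sorted from nude mice (Foxn1nu females, 6 to 8 weeks old) that carried KC-shSmad4 cells. These are mouse pancreatic ductal adenocarcinoma (PDAC) cell lines with Ptf1a-Cre, which acts in the pancreatic epithelium, the reverse transactivator with mKate2 reporter (RIK) and a doxycycline (Dox)-inducible, GFP-linked shRNA against *Smad4*, further transduced with luciferase. All groups share these elements, and which line a library came from was not given. Cells were placed in the pancreas, the spleen for liver metastases or the tail vein for lung metastases of hosts fed Dox, which silences *Smad4*. In the Smad4 on groups Dox was withdrawn after 4 weeks for the pancreas, 5 for the liver and 6 for the lungs, and cells were collected 7 or 14 days later, with Smad4 off groups kept on Dox. The pancreas had 3 libraries labelled off and 2 labelled on for day 7, and 2 and 3 for day 14. The liver had 2 and 3, then 3 and 3, and the lungs had 4 and 2, then 4 and 4.

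Library totals were 11885461 to 43571007 counts, so that 3 counts correspond to 0.0689 to 0.252 CPM (counts per 1000000 in the library), a floor that covers counting error only. These CPM are TMM-normalised. The targeted gene was against the labels, since *Smad4* was at 14.8 to 22.4 CPM in all 17 libraries labelled on and at 69.9 to 143 CPM in all 18 labelled off. Libraries are therefore called labelled on and labelled off, fold changes are labelled on against labelled off, and a lower value for labelled on is a lower value where *Smad4* mRNA was lower. What lies behind this was not tested. The carcinoma markers *Krt8*, *Krt18*, *Krt19*, *Epcam*, *Cdh1*, *Krt7*, *Sox9* and *Cldn4* had counts in every library and summed to 2803 to 17810 CPM. Of the liver libraries labelled off on day 7, 1 was labelled paired-end and stood apart, with fibroblast markers at 27490 CPM in sum and acinar markers at 433 CPM, against 236.8 to 3801 CPM and 4.93 to 16.9 CPM in the other 10 liver libraries. Its sums for hepatocyte markers (1.90 CPM) and carcinoma markers (4072 CPM) lay within the pancreas ranges of 1.85 to 11.7 and 2803 to 8064 CPM, and its acinar sum lay between those of the liver and the pancreas (806.7 CPM or more). Whether its organ label is right was not tested, and the differences of the liver on day 7 are given with and without it. Counts on *mt-Co3* were present in 10 libraries, 1 or 2 in each liver and lung group and none in the pancreas.

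The promoters of *Axl* and *Gas6* are shown because they are the most abundant of the receptors and its ligand, and because SMAD4 is a DNA-binding transcription factor. *Axl* (ENSMUSG00000002602) lies at chr7:25757273-25788705 on the minus strand of GRCm38 and *Gas6* (ENSMUSG00000031451) at chr8:13465374-13494490, also on the minus strand. The sequences are the 250 bases before the RefSeq start (GRCm38.p6), at chr7:25788734-25788983 for *Axl* and chr8:13494536-13494785 for *Gas6*, written 5′ to 3′ on the gene's strand, with the 5-base SMAD box CAGAC, or GTCTG on the other strand, in capitals.
Axl: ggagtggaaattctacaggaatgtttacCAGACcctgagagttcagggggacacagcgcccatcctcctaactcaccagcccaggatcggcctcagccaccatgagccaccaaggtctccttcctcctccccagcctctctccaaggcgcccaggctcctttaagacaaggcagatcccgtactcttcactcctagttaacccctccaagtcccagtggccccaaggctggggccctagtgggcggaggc
Gas6: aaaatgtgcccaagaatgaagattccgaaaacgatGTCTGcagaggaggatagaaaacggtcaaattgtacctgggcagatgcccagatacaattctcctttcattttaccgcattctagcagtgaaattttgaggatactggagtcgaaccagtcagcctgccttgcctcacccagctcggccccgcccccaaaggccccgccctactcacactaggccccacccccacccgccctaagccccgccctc
*Axl* held CAGAC with its first base 222 bases before the start and *Gas6* held GTCTG 215 bases before it, whereas the windows of *Mertk*, *Tyro3* and *Pros1* held neither. Of 32851 promoter windows of this length, 42.2% held the motif. The TEAD element GGAATG, or CATTCC, was found in *Axl* at 233 bases before the start, ahead of the SMAD box and not overlapping it, and in 12.6% of all windows. The GC box GGGCGG, or CCGCCC, was in all 5 windows and 32.7% of all, and the AP-1 element TGANTCA was in none of the 5 and 6.75% of all. These are matches of letters and no binding was measured.

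*Axl* was the dominant TAM receptor transcript in every library. Divided by transcript length, it made up 91.6 to 99.1% (median 96.8%) of the summed level of the 3 receptors, with medians over the 35 libraries of 98.1 CPM per kb for *Axl*, 1.52 for *Tyro3* and 0.549 for *Mertk*. Between ligands, *Gas6* exceeded *Pros1* per kb in all liver and lung libraries, at 60.1 to 98.9% (65.5% or more without the paired-end library) and 67.2 to 89.9% of their sum. In the pancreas *Gas6* was 32.9 to 44.4% of the sum in the 5 libraries labelled off and 55.4 to 72.4% in the 5 labelled on, so the more abundant ligand transcript differed between the labels with no overlap.

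In the pancreas on day 7, *Axl* was at 622, 982 and 865 CPM in the libraries labelled off and at 735 and 660 CPM in those labelled on. The groups overlapped, and the log2 fold change was -0.22 (SE 0.20, edgeR adjusted p = 0.544). On day 14 it was at 902 and 896 CPM labelled off against 530, 533 and 544 CPM labelled on. These groups did not overlap, and *Axl* was lower by less than 2-fold at a small spread between replicates (log2 fold change -0.72, SE 0.08, edgeR adjusted p = 0.00173), which is under the fold threshold used for a call. Calls required more than a 2-fold change together with an adjusted p below 0.05, and 4.64% of the 14234 genes tested in the pancreas on day 14 were called. Library totals in that comparison were 28557488 and 32195795 counts labelled off and 12200163 to 14255679 labelled on. Carcinoma markers summed to 4574 and 4936 CPM labelled off and 5683 to 8064 CPM labelled on. The part of either in the differences of the 5 genes there was not tested.

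In the liver on day 7, the comparison in which *Axl* was noticed, its levels were 624 and 949 CPM labelled off and 153, 119 and 121 CPM labelled on. The log2 fold change was -2.66, and it was -2.35 without the paired-end library, which held the 949 CPM. Of 16007 genes tested there, 0.444%, or 71 genes, were called, against 859 genes without that library. Fibroblast markers summed to 27490 CPM in the paired-end library and 291.8 CPM in the other library labelled off, at 624 CPM *Axl*. They summed to 381.2 to 1229 CPM in the libraries labelled on. Their part in the *Axl* difference was not tested. On day 14 *Axl* was at 1073, 433 and 301 CPM labelled off and 173, 193 and 155 CPM labelled on. All 3 libraries labelled on were again below all labelled off, but those labelled off were spread from 301 to 1073 CPM, and the difference did not pass the test (log2 fold change -1.85, SE 0.50, edgeR adjusted p = 0.365; adjusted p = 0.0112 by DESeq2 and 0.00840 in a single edgeR fit of 12 groups). Without the library at 1073 CPM it was -1.11 (edgeR adjusted p = 0.593), the smallest value with any library left out. It was -1.90 within the liver libraries without *mt-Co3* counts (2 against 2) and -0.96 within those with them (1 against 1). On day 14, 0 of 14947 genes were called in the liver by edgeR (0%), with 689 higher and 758 lower at an unadjusted p under 0.05, and DESeq2 called 331.

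In the lungs on day 7, *Axl* was at 455, 494, 331 and 377 CPM labelled off and 381 and 546 CPM labelled on, with overlap (log2 fold change 0.19, SE 0.27, edgeR adjusted p = 0.998). On day 14 it was at 529, 399, 633 and 383 CPM labelled off and 220, 299, 343 and 552 CPM labelled on. Of the labelled on libraries, 3 lay below all those labelled off and 1 within them (log2 fold change -0.46, SE 0.30, edgeR adjusted p = 0.672). The day-14 value was -0.84 among libraries without *mt-Co3* counts and -0.18 among those with them, 2 against 2 in each. On day 7 edgeR called 0 of 15193 genes in the lungs (0%), with 366 higher and 427 lower at an unadjusted p under 0.05 and 108 called by DESeq2, and on day 14 it called 0.0271% of 14751.

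**Figure D1:**
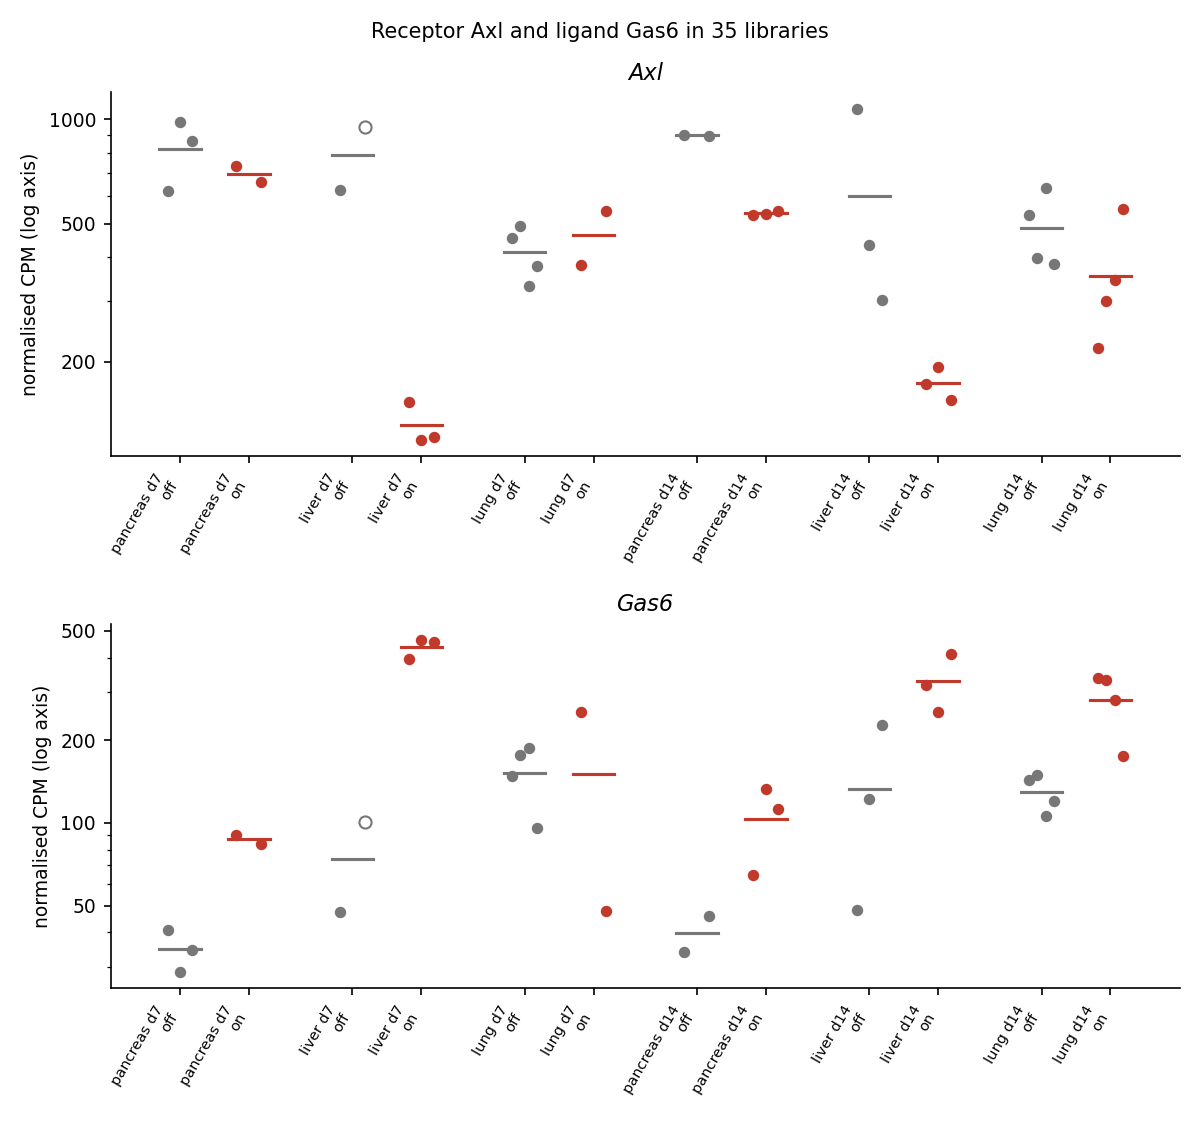
TMM-normalised CPM of *Axl* (top) and *Gas6* (bottom) on log axes in each library, by organ, day and label, with grey points for labelled off, red for labelled on and lines at group means. The open circle is the paired-end library. *Axl* is lowest in both liver groups labelled on (119 to 193 CPM), where *Gas6* is highest (254 to 462 CPM).

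Ordered by group mean, *Axl* went from 899 ± 3.75 CPM (SD, n = 2) in the pancreas labelled off on day 14 to 131 ± 19.0 CPM (n = 3) in the liver labelled on on day 7. Neighbouring groups in this order overlapped down to the lungs labelled on on day 14 (353 ± 142 CPM, n = 4). A gap then separated them from the liver labelled on on day 14 (174 ± 19.2 CPM, n = 3) and day 7, whose nearest libraries were at 155 and 153 CPM. This order is a description, since it holds the liver of day 7.

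*Mertk*, the receptor best known from macrophages, was scarce, with 3 to 479 counts per library. It was at 4.94 to 18.5 CPM in the pancreas, 1.02 to 7.85 CPM in the liver (up to 7.63 CPM without the paired-end library) and 0.198 to 3.43 CPM in the lungs, so that pancreas and lung libraries did not overlap. In the pancreas on day 14 it was at 15.1 and 15.3 CPM labelled off and 6.60, 7.19 and 8.08 CPM labelled on, with no overlap, and it fell by 1.04 on the log2 scale (SE 0.16, edgeR adjusted p = 0.00584). This call was lost without either library labelled off (adjusted p = 0.0673 and 0.0737), without the first labelled on (log2 fold change -0.98, under 2-fold) and in the fit of 12 groups (adjusted p = 0.824).

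The sum of macrophage markers in that comparison was 108 to 214 CPM labelled off and 138 to 212 CPM labelled on, and 0 of the 10 tested were called by edgeR, with 1 at an unadjusted p under 0.05. By organ the sum was 86.1 to 214 CPM in the pancreas, 31.3 to 197 CPM in the liver and 47.8 to 370 CPM in the lungs. Their part in the *Mertk* levels was not tested. *Clec4f*, a Kupffer cell marker, was at 0 in 25 of 35 libraries and *Marco* in 14, whereas the other markers of the list had counts in every library. *Lyz2*, the most abundant of them, reached 312 CPM. In bulk libraries, fewer cells of a type and less RNA per cell cannot be told apart.

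In the other 4 comparisons with a test, *Mertk* had log2 fold changes of -1.38 to 0.37 and its groups overlapped. The lowest of these, in the liver on day 14, was -0.79 without the labelled off library at 7.63 CPM. In the liver on day 7, its difference changed sign with the paired-end library, from -1.05 with it to 0.83 without it.

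*Tyro3*, a receptor best known from the brain, varied little, at 5.97 to 14.0 CPM in the liver and lung libraries other than the paired-end library, which had 31.8 CPM, and 11.4 to 19.0 CPM in the pancreas. It was at 18.1, 19.0 and 17.9 CPM labelled off and 15.8 and 13.5 CPM labelled on in the pancreas on day 7, and at 18.6 and 14.8 CPM against 11.8, 11.4 and 13.0 CPM on day 14. The groups did not overlap on either day, yet the differences did not pass the test (log2 fold changes -0.31 and -0.44, SE 0.14 and 0.15, edgeR adjusted p = 0.245 and 0.101). In the lungs and in the liver on day 14 its log2 fold changes were -0.32 to -0.0013 with overlapping groups. The liver of day 7 gave -1.41 with the paired-end library and -0.36 without it.

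*Gas6*, the ligand of all 3 receptors, was more than 2-fold higher labelled on in all organs and days but the lungs on day 7. Among the tested comparisons of labels, edgeR called it only in the pancreas on day 7. Its log2 fold changes had the opposite sign to those of *Axl*, which edgeR called in none of these tests. The *Gas6* libraries labelled on were all above those labelled off in 5 of the 6 organs and days, all but the lungs on day 7. This count is a description, since it holds the liver of day 7 and groups this small can separate without a difference. The share of all genes that separate in this way was not counted. In the pancreas on day 7 it was at 40.6, 28.7 and 34.6 CPM labelled off and 90.7 and 84.1 CPM labelled on. It rose (log2 fold change 1.35, SE 0.16, edgeR adjusted p = 0.0181) in a comparison in which 1.33% of 14439 genes were called. With the mouse number as a block the adjusted p was 0.148 and in the fit of 12 groups 0.286, and without the library labelled off at 34.6 CPM or either labelled on it was above 0.05 (adjusted p = 0.0903, 0.118 and 0.0616).

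Fibroblast markers were also higher in those pancreas libraries, with a sum of 21310 and 22190 CPM labelled on against 8345 to 12870 CPM labelled off, all 10 genes higher and 2 called (*Col3a1* and *Pdgfra*). Acinar markers went the other way, with sums of 2187 to 3515 CPM labelled off and 806.7 and 1107 CPM labelled on, all 8 lower, 2 of them called, and a median log2 fold change of -1.69. Their part in the *Gas6* difference was not tested. Across organs, *Gas6* was lowest in the pancreas (28.7 to 133 CPM), where the fibroblast marker sum was 7755 to 22190 CPM, against 146.4 to 3801 CPM in all liver and lung libraries but the paired-end library.

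In the pancreas on day 14, *Gas6* was at 33.9 and 45.7 CPM labelled off and 64.8, 133 and 112 CPM labelled on. Fibroblast markers summed to 9335 and 10310 CPM labelled off. Labelled on, they summed to 7755, 11340 and 15820 CPM in the libraries with 64.8, 133 and 112 CPM *Gas6*. Their part in the *Gas6* difference was not tested. The difference did not pass the adjusted threshold (log2 fold change 1.39, SE 0.36, edgeR adjusted p = 0.0782). It passed by DESeq2 (adjusted p = 0.0108), with the mouse number as a block (1.26, adjusted p = 0.0138) and without the library at 64.8 CPM (1.63, adjusted p = 0.000167).

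In the liver on day 14, *Gas6* was at 48.1, 122 and 227 CPM labelled off and 317, 254 and 412 CPM labelled on. The nearest libraries were 227 and 254 CPM (log2 fold change 1.29, SE 0.52, edgeR adjusted p = 0.498). It was 0.88 without the library at 48.1 CPM and 1.91 without that at 227 CPM, with 1.89 among libraries without *mt-Co3* counts and 0.86 among those with them. In the liver on day 7 the levels were 47.5 and 101 CPM labelled off and 396, 462 and 456 CPM labelled on, a log2 difference of 2.49, or 3.10 without the paired-end library, which held the 101 CPM.

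In the lungs on day 14, *Gas6* was at 143, 149, 106 and 120 CPM labelled off and 337, 331, 280 and 175 CPM labelled on. All 16 pairs of a library labelled on and one labelled off had the higher value in the former (log2 fold change 1.11, SE 0.21, edgeR adjusted p = 0.170). Here same-numbered libraries deviated together from their group means, although the own number gave the best match in only 1 of 4, and with the number as a block the difference passed (1.08, edgeR adjusted p = 0.0150). It also passed by DESeq2 (adjusted p = 0.000313), with no filter on low counts (0.0322), with a covariate for *mt-Co3* counts (0.00769) and without the library labelled on at 175 CPM (1.27, adjusted p = 0.0424). It was 1.19 and 0.97 among libraries without and with *mt-Co3* counts. Same-numbered libraries were alike in having these counts or not, so the block also holds this split.

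Macrophage markers in the lungs on day 14 summed to 66.4 to 176 CPM labelled off and 116 to 370 CPM labelled on, 9 of 10 tested were higher and 0 were called by edgeR, 2 being at an unadjusted p under 0.05. Fibroblast markers summed to 146.4 to 756.9 CPM and 301.1 to 1499 CPM, with 10 of 10 higher and 0 called, 2 at an unadjusted p under 0.05. Their part in the *Gas6* difference was not tested. On day 7 *Gas6* in the lungs was at 148, 177, 187 and 96.0 CPM labelled off and 253 and 47.6 CPM labelled on. The labelled on libraries lay on either side of those labelled off (log2 fold change -0.02, SE 0.58, edgeR adjusted p = 0.999).

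**Figure D2:**
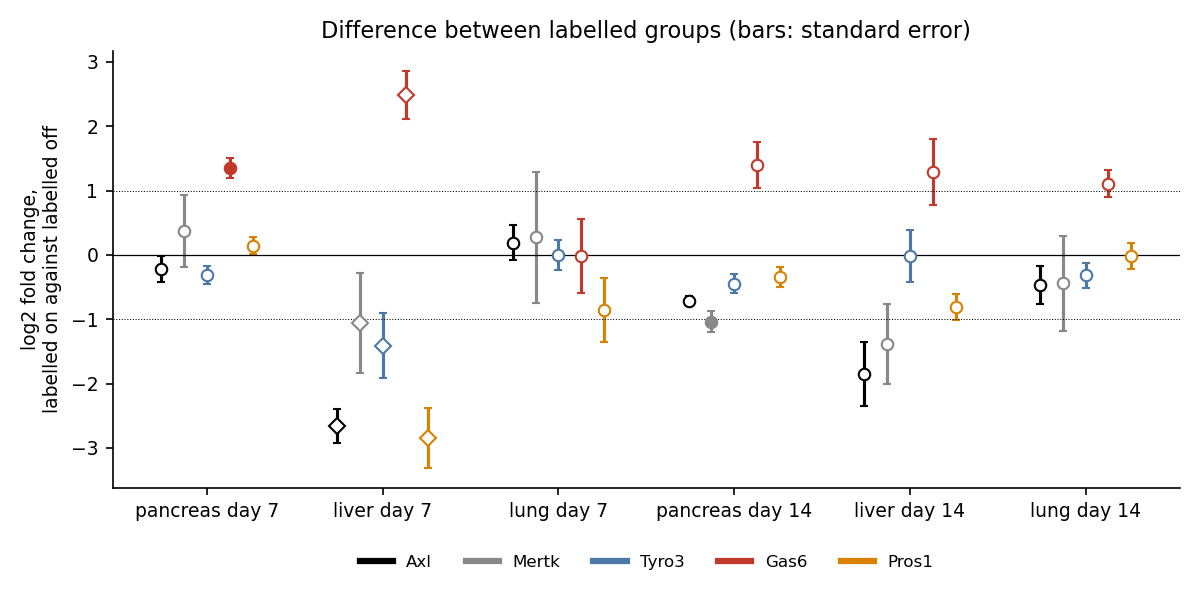
Log2 fold change of labelled on against labelled off with its standard error, for the 5 genes by organ and day. Filled circles passed an adjusted p under 0.05 and a fold over 2, open circles did not, diamonds are the untested liver of day 7, and dotted lines mark 2-fold. *Gas6* lies above 1 in 5 of 6 places and was called in the pancreas on day 7, and *Mertk* was called lower in the pancreas on day 14.

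Ordered by group mean, *Gas6* ran from 438 ± 36.5 CPM (SD, n = 3) in the liver labelled on on day 7 to 34.6 ± 5.94 CPM (n = 3) in the pancreas labelled off on day 7. Each group overlapped its neighbour in this order except at 1 step, between the liver labelled off on day 7 (47.5 and 101 CPM) and the pancreas labelled off on day 14 (33.9 and 45.7 CPM).

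*Pros1*, which encodes the anticoagulant protein S, was at 62.6 to 109 CPM in the pancreas, 20.5 to 116 CPM in the lungs and 8.22 to 108 CPM in the liver (8.22 to 40.1 CPM without the paired-end library, below all pancreas libraries). In the liver on day 14 it was at 25.8, 36.5 and 24.3 CPM labelled off and 18.9, 16.6 and 15.2 CPM labelled on. The groups did not overlap, and the difference did not pass the test (log2 fold change -0.81, SE 0.21, edgeR adjusted p = 0.357). In the liver on day 7 it was at 40.1 and 108 CPM labelled off and 10.7, 13.5 and 8.22 CPM labelled on, a log2 difference of -2.84, or -1.99 without the paired-end library at 108 CPM.

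Hepatocytes are the main source of protein S in plasma. Hepatocyte markers in the liver on day 7 summed to 1.90 and 17.3 CPM labelled off, the first being the paired-end library, and to 58.3 to 144 CPM labelled on. On day 14 they summed to 22.4 to 49.6 CPM and 37.1 to 43.3 CPM, with overlap. Their part in the *Pros1* differences was not tested. In the pancreas on day 14 *Pros1* was at 107 and 94.9 CPM labelled off and 62.6, 81.4 and 90.4 CPM labelled on, without overlap (log2 fold change -0.35, SE 0.15, edgeR adjusted p = 0.193). Elsewhere its groups overlapped, with log2 fold changes of -0.86 to 0.15.

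**Figure D3:**
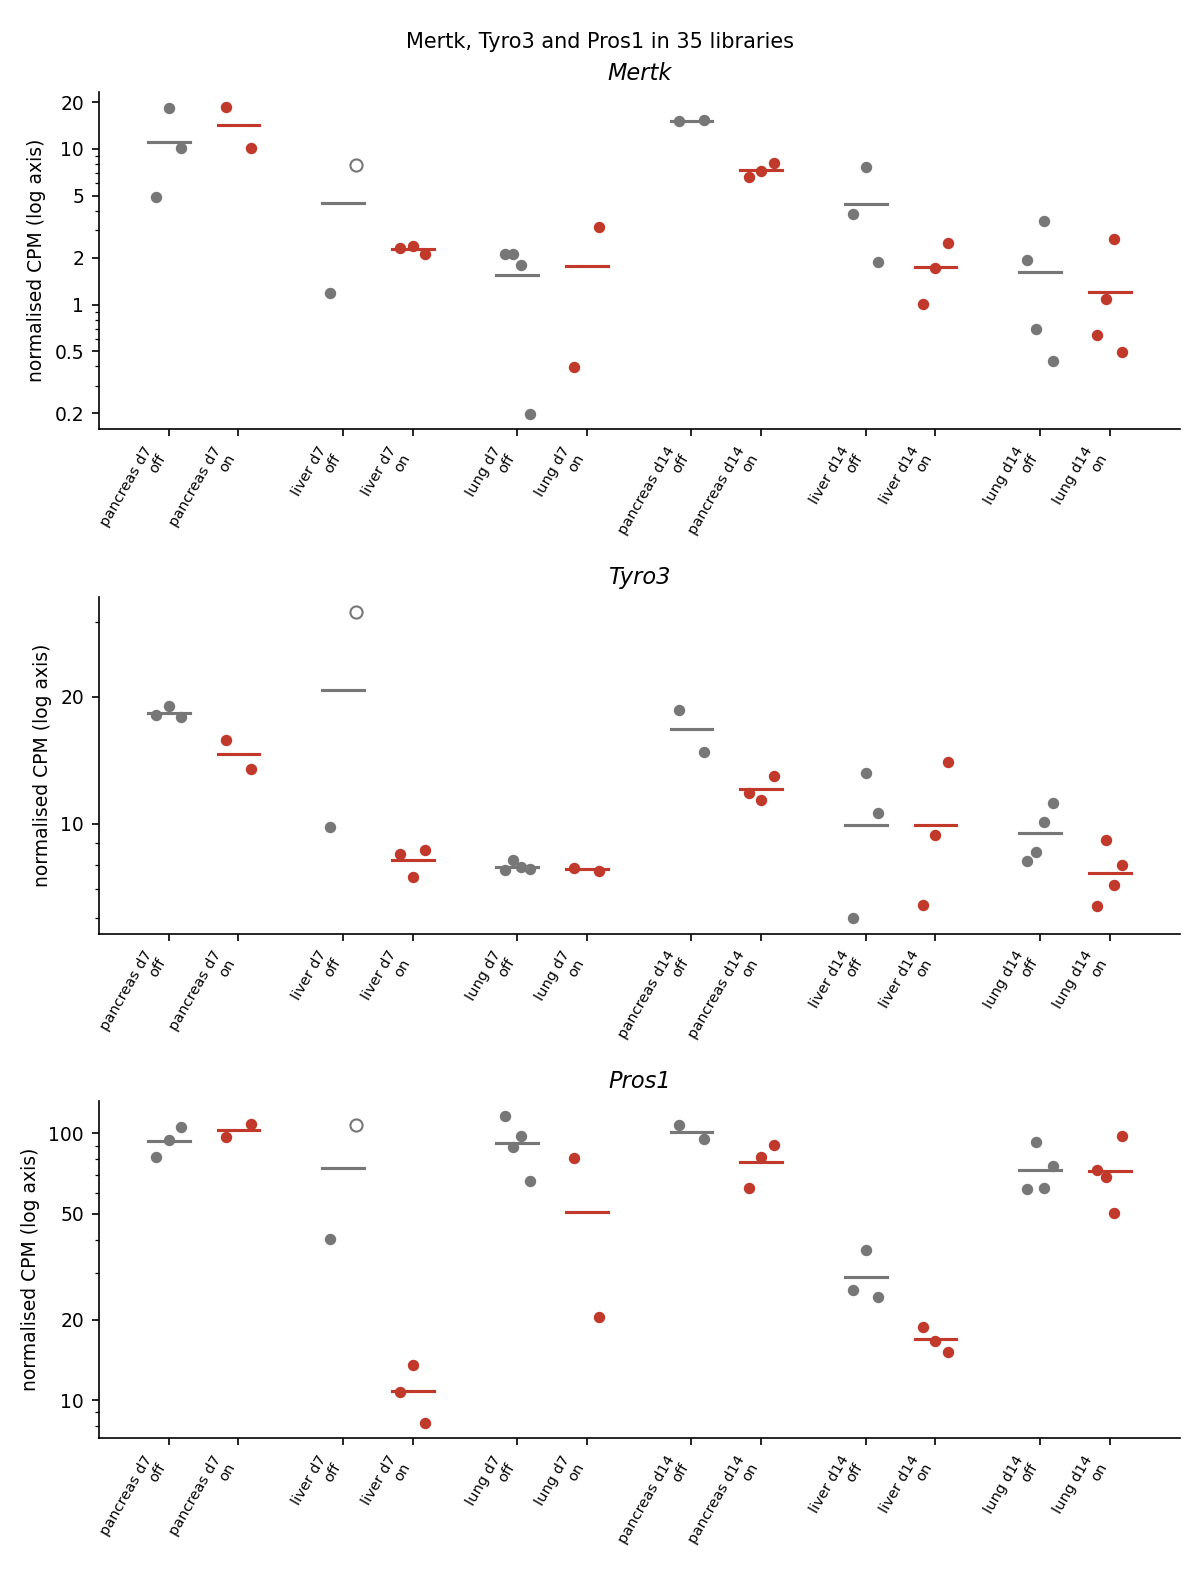
TMM-normalised CPM of *Mertk*, *Tyro3* and *Pros1* on log axes in each library, by organ, day and label, with grey points for labelled off, red for labelled on and lines at group means. The open circle is the paired-end library. *Mertk* is at 4.94 CPM or more in all pancreas libraries and at 3.43 CPM or less in all lung libraries, and *Pros1* is lowest in the liver groups labelled on (8.22 to 18.9 CPM).

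Organs were compared on day 14 within each label. Markers of other cells also differed between organs on that day. Acinar markers summed to 1039 to 3760 CPM in the pancreas and 2.94 to 13.3 CPM in the liver and lungs, with 8 of 8 called lower in each comparison, and fibroblast markers to 7755 to 15820 CPM against 146.4 to 3801 CPM. Of 8 carcinoma markers, 7 and 6 were called higher in the liver than in the pancreas labelled off and on, and 3 and 1 in the lungs. Their part in the organ differences of the 5 genes was not tested. Among libraries labelled on, *Axl* was lower in the liver than in the pancreas (log2 -1.66, SE 0.29, edgeR adjusted p = 0.00356), at 155 to 193 against 530 to 544 CPM, while *Gas6* was higher (1.64, SE 0.32, adjusted p = 0.00651), in a comparison in which 13.6% of 15584 genes were called. *Pros1* was lower in the liver than in the pancreas (-2.24, SE 0.24, edgeR adjusted p = 0.000426) and than in the lungs (-2.12, SE 0.23, adjusted p = 0.00222), the latter with 2.28% of genes called. In the lungs *Gas6* was higher than in the pancreas (1.42, SE 0.31, edgeR adjusted p = 0.0169; 0.0600 without the pancreas library labelled on numbered 3), where 7.73% of genes were called, and *Axl* was at -0.62 (SE 0.26, adjusted p = 0.150). For *Axl* in the liver against the lungs the value was -1.05 (SE 0.27, edgeR adjusted p = 0.0684), and it passed by DESeq2 (adjusted p = 0.00591), with no filter on low counts (0.0439) and without the first lung library labelled on (-1.22, adjusted p = 0.0239).

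Among libraries labelled off, no organ difference of *Axl* passed the test (liver against pancreas -0.56, SE 0.49, edgeR adjusted p = 0.520; lungs against pancreas -0.92, SE 0.46, adjusted p = 0.232). The lung libraries were at 383 to 633 CPM, all below the pancreas libraries at 896 and 902 CPM. The fit shared its spread over the 3 organs, with the liver at 301 to 1073 CPM. Without the liver library at 1073 CPM the value for liver against pancreas was -1.33 (edgeR adjusted p = 0.0210). *Gas6* was higher in the liver and lungs than in the pancreas by 1.70 and 1.67 (SE 0.51 and 0.50), which edgeR did not call (adjusted p = 0.0639 and 0.0607) and DESeq2 did (0.00656 and 0.00467). *Pros1* was lower in the liver than in the pancreas (-1.82, SE 0.22, edgeR adjusted p = 0.00246), with 9.85% of 16582 genes called, and than in the lungs (-1.32, SE 0.19, adjusted p = 0.0242), with 0.874% called. The second of these had an adjusted p of 0.0507 to 0.0668 when any of 5 libraries (both of the pancreas, the second of the liver and 2 of the lungs, the first and the last) was left out, and of 0.0533 with the mouse number as a block.

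*Mertk* was lower in the lungs than in the pancreas under either label, with log2 differences of -3.25 (SE 0.75, edgeR adjusted p = 0.0238, 9.69% of genes called) labelled off and -2.61 (SE 0.55, adjusted p = 0.0147) labelled on. In the liver against the pancreas it was at -1.78 (SE 0.79, edgeR adjusted p = 0.190) labelled off and -2.10 (SE 0.59, adjusted p = 0.0299) labelled on. The lung call labelled off had an adjusted p of 0.0529 to 0.128 without the first or second library of the pancreas or of the lungs, and 0.113 with the block. The lung call labelled on had 0.0546 and 0.0651 without the pancreas library numbered 2 or 3. The liver call had 0.0591 to 0.0934 without any of the 3 pancreas libraries or the first or second of the liver. Fibroblast markers were lower in the lungs than in the pancreas under both labels (10 of 10 called lower) and in the liver (3 and 8 of 10). Of 10 macrophage markers tested, 5 were called lower in the lungs under either label and 0 and 3 in the liver labelled off and on. Labelled off, the macrophage sum was 66.4 to 176 CPM in the lungs, 44.5 to 101 in the liver and 108 to 214 in the pancreas. Labelled on, it was 116 to 370, 88.8 to 197 and 138 to 212 CPM, so that lungs and pancreas overlapped under both labels. The part of either list in these differences was not tested.

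The difference between labels was itself compared between organs on day 14. For *Axl*, the log2 fold change in the liver minus that in the pancreas was -1.09 (SE 0.60), in the liver minus that in the lungs -1.38 (SE 0.58), and in the lungs minus that in the pancreas 0.29 (SE 0.41). For *Gas6* these values were -0.06 (SE 0.70), 0.18 (SE 0.54) and -0.26 (SE 0.39). No member passed (edgeR adjusted p of 0.964 or more), and edgeR called 0 genes in any of the 3 comparisons (0%), with 31, 4 and 113 called by DESeq2. At an unadjusted p under 0.05 there were 280 positive and 421 negative genes in the first comparison, 144 and 334 in the next and 450 and 729 in the last. A difference in response between organs was thus not detectable for these genes at these group sizes.

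Over the 35 libraries, log2 levels of *Axl* and *Gas6* had a Pearson r of -0.88 and a Spearman rho of -0.90, which is a description, as libraries of a group share organ, day and label. *Gas6* stood at rank 17421 of 17546 genes ordered from most to least like *Axl*. Over deviations from the 12 group means r was -0.60, and without the paired-end library the first value was -0.89. The ratio of *Axl* to *Gas6* per kb was 7.75 to 17.3 in the pancreas labelled off, 2.03 to 4.14 in the pancreas labelled on, and 0.131 to 0.386 in the liver labelled on. The receptor transcript thus exceeded the ligand transcript in every pancreas library and was below it in all 6 liver libraries labelled on. The liver ratios, like r and the rank, are a description, since they hold the liver of day 7, by which *Axl* was chosen. In the liver labelled on on day 14 alone the ratio was 0.190 to 0.386. For *Pros1*, *Mertk* and *Tyro3* r with *Axl* was 0.71, 0.51 and 0.51, and over deviations 0.02, 0.40 and -0.10.

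**Figure D4:**
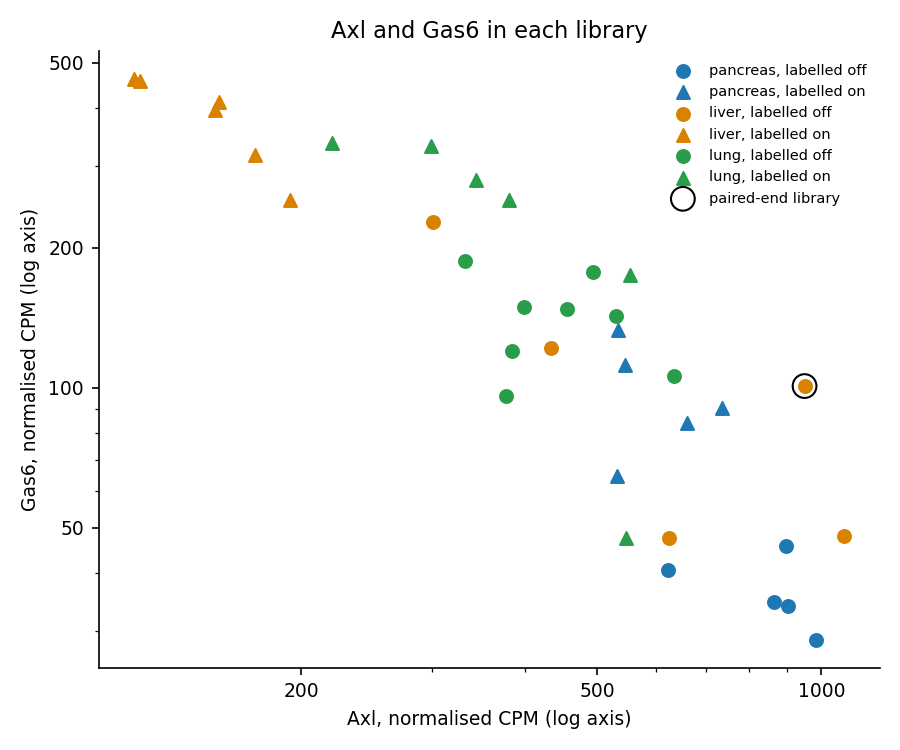
*Gas6* against *Axl* in each library, both as TMM-normalised CPM on log axes, with colors for organs, circles for labelled off and triangles for labelled on, and a ring around the paired-end library. The liver libraries labelled on lie at the upper left (119 to 193 CPM *Axl*, 254 to 462 CPM *Gas6*) and the pancreas libraries labelled off at the lower right (622 to 982 and 28.7 to 45.7 CPM).

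Among 50 receptor tyrosine kinases, *Axl* ranked first per kb in all 10 pancreas libraries, and 1 or 2 in all 14 lung libraries. In the liver its rank was 1 or 2 in the 5 libraries labelled off and 3 to 6 in the 6 labelled on. The liver ranks are a description, since they hold the liver of day 7, by which *Axl* was chosen. The ephrin receptor *Epha2* was the other leading kinase, with a median of 106 CPM per kb over all libraries, followed by the collagen receptor *Ddr1* at 41.8, while *Tyro3* ranked 19 to 28 and *Mertk* 22 to 42. Among the 47 other kinases, 39 were tested in the pancreas on day 7 and 38 on day 14, of which 4 and 5 were called higher and 0 lower, where 1.33% and 4.64% of all genes were called, with a median log2 fold change of 0.02 and 0.06 against 0.01 and 0.02 over all genes. Those called on day 7 were the FGF receptors *Fgfr2* (log2 fold change 1.91) and *Fgfr3* (1.22), the PDGF receptor *Pdgfra* (2.93), which is also in the fibroblast list, and the ephrin receptor *Epha4* (1.02). On day 14, the 4 named by lowest p were *Erbb3*, the kinase-impaired partner of ERBB2 (1.17), *Epha4* (1.53), *Fgfr3* (1.75) and *Ros1* (2.92). None of the kinases was called in the lungs or in the liver on day 14, with 2, 6 and 4 at an unadjusted p under 0.05 in the lungs on days 7 and 14 and the liver. Of all genes, 0%, 0.0271% and 0% were called in these comparisons. These shares are for calls and not for the unadjusted p. All genes at that p are counted above for the lungs on day 7 and the liver on day 14. The counts of kinases at that p are thus no result about the list.

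**Figure D5:**
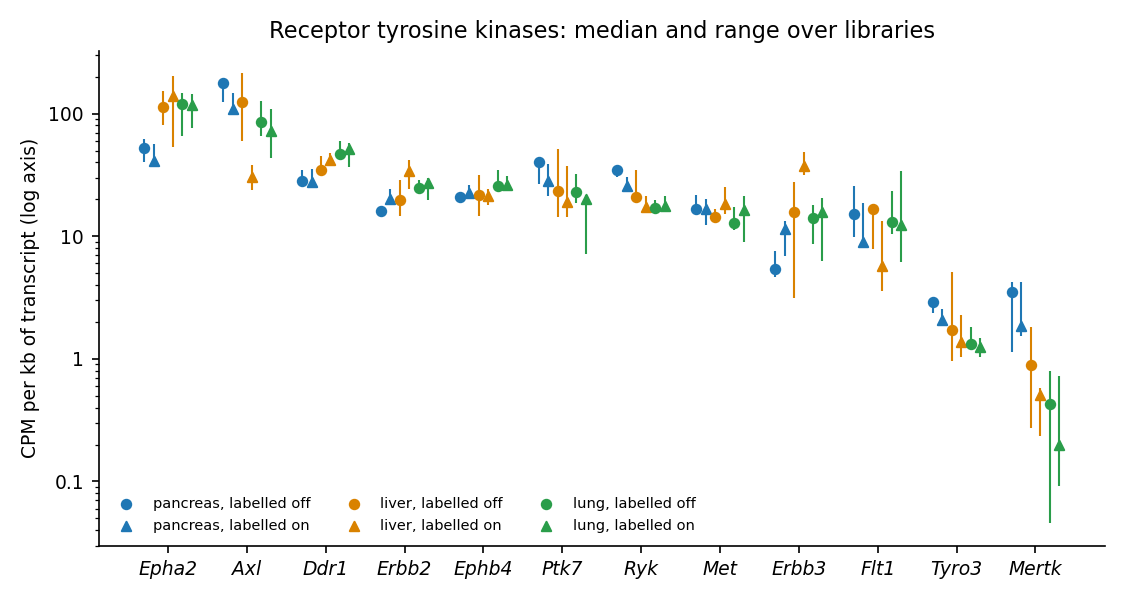
CPM per kb of transcript on a log axis for the 10 receptor tyrosine kinases of highest median and for *Tyro3* and *Mertk*, with the median (symbol) and range (line) over libraries of each organ and label. *Axl* leads in the pancreas (105 to 195 CPM per kb) and is at 23.7 to 38.4 in the liver labelled on, where *Epha2* leads. The liver libraries include those of day 7, by which *Axl* was chosen.

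Other genes of the TAM pathway were compared between labels in the 5 comparisons other than the liver of day 7. Of all genes, edgeR called 1.33% and 4.64% in the pancreas on days 7 and 14. It called 0% and 0.0271% in the lungs on days 7 and 14 and 0% in the liver on day 14. Where 0% of all genes were called, no list could hold a call. Of 6 genes of ligand maturation and other ligands, such as *Ggcx*, which gamma-carboxylates GAS6 and protein S, 4 or 5 were tested and edgeR called 0, with 0 or 1 at an unadjusted p under 0.05. Of the 5 genes of receptor shedding and turnover, which include the sheddases *Adam10* and *Adam17*, 0 were called and 0 or 1 were at that p. The 17 signalling adaptors and kinases, such as *Grb2* and *Pik3r1*, had 0 called and 1 to 9 at that p, and the 5 cytokine feedback genes, such as *Socs1* and *Socs3*, had 0 called and 0 to 3. The 9 of 17 were in the pancreas on day 14, where 4.64% of all genes were called. There the median log2 fold change of the list was -0.21 against 0.02 over all genes. The share of all genes at that unadjusted p was not set beside the 9 or the other counts, so they are no result about the lists.

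Engulfment genes act with or beside TAM receptors in the uptake of dying cells. Of 17 tested in the pancreas on day 7, the scavenger receptor *Stab1* was the 1 called, and it fell by 1.32 on the log2 scale (SE 0.20, edgeR adjusted p = 0.0334), where 1.33% of all genes were called. Macrophage markers there summed to 121 to 155 CPM labelled off and 86.1 to 108 CPM labelled on. Their part in the *Stab1* difference was not tested. In the other 4 comparisons 0 of 17 or 18 were called, with 2 to 10 at an unadjusted p under 0.05. The share of all genes at that p was not set beside this count, so the count is no result about the list. YAP and TEAD factors are known regulators of *Axl*. Of 11 genes of this group, *Ankrd1*, a YAP target gene, fell by 1.52 and 1.36 in the pancreas on days 7 and 14 (SE 0.19 and 0.20, edgeR adjusted p = 0.0224 and 0.00980), and it was the 1 called in either, beside 1.33% and 4.64% of all genes. In the lungs and in the liver on day 14, 0 of 11 were called, with 2 at an unadjusted p under 0.05 in each. Of all genes, 0% to 0.0271% were called there. This share is for calls and not for the unadjusted p, so the counts at that p are no result about the list.

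By organ on day 14, 4 and 5 of 17 engulfment genes were called lower in the liver than in the pancreas labelled off and on, and 4 and 3 in the lungs, with 0 called higher. Of the 11 YAP and TEAD genes, 4 and 2 were called lower in liver against pancreas, 2 and 1 in lungs against pancreas, and 1 was called higher, *Tead4* in the liver labelled off (1.12). The share of all genes called was 9.85% and 13.6% for liver against pancreas and 9.69% and 7.73% for lungs against pancreas. The 3 genes called lower in all 4 comparisons were *Wwtr1*, *Itgb5* and *Lrp1*. *Wwtr1*, which encodes the YAP relative TAZ, was lower in the liver than in the pancreas (log2 -1.02 labelled off and -1.46 labelled on, edgeR adjusted p = 0.0269 and 0.00144) and in the lungs (-1.43 and -1.18, adjusted p = 0.00515 and 0.00445). The integrin gene *Itgb5* was lower in the liver (-1.77 and -1.66, edgeR adjusted p = 0.00518 and 0.00136) and in the lungs (-1.61 and -1.35, adjusted p = 0.00451 and 0.00381). *Lrp1*, an engulfment receptor, was lower in the liver (-2.05 and -2.10, edgeR adjusted p = 0.0180 and 0.00212) and in the lungs (-3.24 and -2.36, adjusted p = 0.00221 and 0.00148). Fibroblast and acinar markers were lower in the same comparisons, as given above, and their part was not tested.

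The genes with the pattern most like *Axl* over the 35 libraries, among 17546 genes, were *Angptl2*, a secreted angiopoietin-like factor (r = 0.96), *Qk*, an RNA-binding protein (0.95), *Spred3*, an inhibitor of RAS signalling (0.95), *Syne3*, a nuclear envelope protein (0.95), *Spire1*, an actin nucleator (0.95), *Msn*, a linker of membrane and actin (0.95), *Rbpms2* (0.95) and *Bnip2* (0.95). All 8 were among the 8 most alike without the paired-end library, and 4 of 8 with Spearman's rho. Over deviations from group means the most alike were *Spred3* (0.88), *Kctd11* (0.87), *Cdk17* (0.86), *P4ha1* (0.86) and *Apbb2* (0.86). These are correlations across libraries that share organ and label and that include the liver of day 7, by which *Axl* was chosen. They carry no test.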

How the data were processed

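The data are RNA-seq of sorted tumor cells, 35 libraries in 12 groups of organ, day and Smad4 label, as GEO's labels give them. Reads (75-bp) were trimmed with Trimmomatic 0.36, aligned with STAR 2.5.3a to GRCm38 (mm10) and counted with featureCounts 1.6.3, per the submitters' processing notes and the study's methods. The authors deposited raw counts per gene, not normalized. The strand setting of the counting is not given in the sources used here. Library totals and the floor they set are given with the results, and 1 library was labelled paired-end.

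Each comparison used edgeR 4.0.16 in R 4.3.3, with filterByExpr (minimum count 10, minimum total 15), TMM scaling and the robust quasi-likelihood test. A call needed more than a 2-fold change and an adjusted p below 0.05 (Benjamini-Hochberg, all genes tested). Organ comparisons fitted the 3 groups of a label on day 14, and responses were compared by the interaction of organ and label. Likeness to *Axl* was the Pearson correlation of log2 CPM (prior count 0.5). Levels per kb used the transcript length in the count table. The models were tested on simulated data. Figures were drawn with matplotlib 3.10.9 in Python 3.11.15.

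The members and the gene lists were chosen with earlier results of these data known. Named genes were *Smad4*, the members, genes of the pathway lists called in a comparison (at most 4 per list and comparison, by lowest p), and the 8 and 5 genes most like *Axl*. The labels number the mice but do not say that libraries of the same number share a litter or day, and p-values measure the spread between these libraries. Same-numbered libraries of the groups compared deviated together from their group means in the lungs on day 14 (r of 0.58 to 0.68 over genes in 4 pairs, the own number being the best match in 1 of 4) and not in every pair elsewhere, so the number was taken as a pairing there only. Under both labels there, libraries numbered 1 and 2 had no *mt-Co3* counts and those numbered 3 and 4 had them. A pairing by number and a likeness by that split cannot be told apart. The alternatives were DESeq2 1.42.0, its size factors in edgeR, a single fit of 12 groups, no filter, a block for the mouse number, leaving out each library, and a covariate for *mt-Co3* counts. One further allele of the cell lines, shared by all groups, is not reported here.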

Additional observations from a re-analysis of the deposited data

Results flagged for a closer look

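In the lungs labelled off on day 7, *Mertk* was at 0.198 CPM in 1 of the 4 libraries, far from the other 3 at 1.81 to 2.11 CPM. The gap to the nearest library was 0.84 of the group's range. This library held 3 counts of *Mertk*, at the floor. Of 15 groups of the 5 members with 4 or more libraries, 1 stood out in this way, and chance gives about 1 in 20.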

How the results depend on the processing

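Of 398 values recomputed under alternatives other than leaving out a library, 339 kept their direction and side of the threshold or moved little. DESeq2 in place of edgeR called 533 genes in the pancreas, 2887 in liver and 108 in lungs for day 7 (192, 71 and 0 by edgeR), 331 in liver and 213 in lungs for day 14 (0 and 4 by edgeR), 759 and 958 between liver and lungs labelled off and on (145 and 356 by edgeR), and 31, 113 and 4 for the responses of liver and lungs against pancreas and liver against lungs (0 by edgeR). It put *Gas6* past the threshold in the pancreas and lungs on day 14 (1.38 and 1.10) and *Axl* in the liver on day 14 (-1.88). With no filter on low counts edgeR called 549 genes in pancreas, 977 in liver and 13 in lungs for day 7, 7 and 23 in liver and lungs for day 14, 235 between liver and lungs labelled off, and 3 and 15 for the responses of liver and lungs against pancreas, and *Gas6* passed in the lungs on day 14 (1.10). The single fit of 12 groups called 42, 3097 and 16 on day 7 and 16, 254 and 14 on day 14, in the order pancreas, liver, lungs, with *Gas6* in the pancreas on day 7 not called (1.34) and *Axl* in the liver on day 14 called (-1.79). The covariate for *mt-Co3* counts gave 1022 and 4 called genes for liver and lungs of day 7 and 127 for the lungs of day 14, where *Gas6* passed (1.09).

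With the mouse number as a replicate block, 0 genes were called in pancreas and liver for day 7, 4 in lungs for day 7 and 109 for day 14, 41 and 157 between liver and lungs labelled off and on, and 10 for the response of lungs against pancreas. *Gas6* lost its call in the pancreas on day 7 (1.36), as did *Mertk* in lungs against pancreas and *Pros1* in liver against lungs, both labelled off (values with the results), and *Gas6* gained one in the pancreas and lungs on day 14 (1.26 and 1.08). Outside the lungs of day 14, same-numbered libraries had correlated deviations of -0.37 to 0.49, and the block there is a comparison of settings only. Under the block the sign changed in the lungs on day 7 for *Axl* (-0.0069), *Mertk* (-0.71) and *Tyro3* (0.013), for *Gas6* between liver and lungs labelled off (-0.22) and for its response in the liver against the pancreas (0.29). No other call on the 5 genes changed with the block. *Tyro3* in the lungs on day 7 also changed sign with DESeq2 (0.0002) and with its size factors (0.0070).

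With each library left out in turn, a group left with 1 library was taken to vary like the others. For *Gas6* the range of log2 values was 1.22 to 1.49 (pancreas on day 7), -1.61 to 0.72 (lung on day 7), 1.16 to 1.64 (pancreas on day 14), 1.02 to 1.27 (lung on day 14), -0.61 to 0.43 (liver against lung on day 14 labelled off), -0.0044 to 0.37 (liver against lung on day 14 labelled on), -0.46 to 0.55 (the response of liver against pancreas), -0.23 to 0.82 (the response of liver against lung). The number of genes called then was 23 to 162 (pancreas on day 7), 0 to 3373 (liver on day 7), 0 to 28 (lung on day 7), 212 to 992 (pancreas on day 14), 0 to 2 (liver on day 14), 2 to 7 (lung on day 14), 245 to 1872 (liver against pancreas on day 14 labelled off), 412 to 1961 (lung against pancreas on day 14 labelled off), 18 to 261 (liver against lung on day 14 labelled off), 534 to 1431 (lung against pancreas on day 14 labelled on), 149 to 477 (liver against lung on day 14 labelled on), 0 to 1 (the response of lung against pancreas). For *Mertk* the range of log2 values was -0.14 to 0.93 (pancreas on day 7), -1.96 to 1.09 (lung on day 7), -1.15 to 0.28 (lung on day 14). For *Tyro3* the range of log2 values was -0.036 to 0.031 (lung on day 7), -0.36 to 0.22 (liver on day 14), -0.21 to 0.31 (liver against lung on day 14 labelled off). For *Axl* the range of log2 values was -0.15 to 0.46 (lung on day 7), -0.41 to 0.63 (liver against lung on day 14 labelled off), -0.017 to 0.48 (the response of lung against pancreas). For *Pros1* the range of log2 values was -0.21 to 0.12 (lung on day 14), -0.31 to 0.034 (lung against pancreas on day 14 labelled on). Of 574 values for single genes with a library left out, 35 changed sign and 30 crossed the threshold. Of the 8 genes most like *Axl*, 4 were among the 8 by Spearman's rho. The cause of these changes was not tested.

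Groups of 2 to 4 libraries limit what can be detected, most of all in the liver on day 7 and for *Mertk*, whose lowest library held 3 counts.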

Other observations

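Genes at the other end of the likeness to *Axl* were looked at after their values were seen. Over the 35 libraries the lowest correlations of log2 level with *Axl* were those of *Limk2*, a kinase of actin turnover (r = -0.95), *Acad11*, an acyl-CoA dehydrogenase (-0.94), and *Rundc1* (-0.94). Over deviations from the group means the lowest were *Mmaa* (-0.86), *Acnat1* (-0.85) and *Abhd14b* (-0.84). The libraries share organ, day and label and include the liver of day 7, by which *Axl* was chosen, and no test was made.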
